A study of Mus musculus with 96 samples.

Results

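Serine-synthesis high and low cells were compared among single J1 mouse embryonic stem (ES) cells grown in serum. For each cell the counts of its 2 sequencing lanes were added and scaled to CPM, counts per 1000000 reads. The 35 of 48 cells with Gata6 under 20 CPM were selected on the measured values of 3 genes: they were ranked by a score, the mean of the standardised log2(CPM + 1) levels of Psat1, Phgdh and Asns. The 12 highest cells are called score-high here, the 12 lowest score-low and the 11 between them middle cells. Both sides together hold 24 of 48 cells, or 48 of the 96 deposited samples. All cells had the same genotype and culture conditions: feeder-free dishes with fetal bovine serum, leukaemia inhibitory factor and non-essential amino acids. Passages were 12 to 20. Single cells were captured on a microfluidic chip, and their cDNA was amplified and sequenced.

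The serine pathway branches from glycolysis. Phgdh catalyses its first step, Psat1 the next and Psph the last, and the serine made feeds glycine and folate-bound one-carbon units. Asns makes asparagine from aspartate and glutamine and is not a serine enzyme. All of these genes belong to the programme of the transcription factor ATF4, whose protein is made in larger amounts when the initiation factor eIF2 is phosphorylated, as during amino acid shortage or endoplasmic reticulum (ER) stress. Because that control acts on translation, Atf4 mRNA and ATF4 activity need not move together.

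The labels name 1 culture condition and no separate cultures, so each side counts as 1 sample and cells are not replicates. No test was run and no p-value was computed, and all differences below describe these cells. A difference is the mean log2(CPM + 1) of score-high cells minus that of score-low cells. The added 1 CPM shrinks the change of genes with few reads, whereas single cells near 0 can enlarge it. On the log2 ratio of mean CPM, for example, Gldc went from 1.30 to 0.12 and Chac1 from 2.46 to 3.64. Beside the difference stands a share of the 144 pairs of 1 score-high and 1 score-low cell. It counts the pairs in which the score-high cell had the larger CPM, with ties split evenly. The 48 cells had 4408953 to 9767245 reads each. Score-high cells had a median of 6448497 reads and 9006 detected genes, and score-low cells 6363906 reads and 8679 detected genes. Both lanes of a cell differed by no more than sampling noise, with chi-square values of 0.963 to 1.05 per degree of freedom.

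The score genes are given as the values that chose the cells. Psat1 had 225, 531 and 1250 CPM (lowest, median, highest) in score-high cells, against 0.653, 168 and 490 CPM in score-low cells. Phgdh had 27.0, 114 and 164 CPM in score-high cells, against 0, 14.8 and 90.6 CPM in score-low cells. Asns had 334, 793 and 2210 CPM in score-high cells, against 4.42, 159 and 1200 CPM in score-low cells. The sides overlapped for each gene, and the spread was wider among score-low cells. For Psat1 the mean log2(CPM + 1) was 9.06 ± 0.76 in score-high cells and 5.73 ± 3.00 in score-low cells (SD over 12 cells each). The lowest score among score-high cells was 0.39, and that of the next cell outside was 0.32. The highest score among score-low cells was -0.12, and that of the next cell outside was -0.08, so neither limit lies in a gap.

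The low score was reached in different ways. Of the 12 score-high cells, 8 were below the median of the 35 cells for none of the 3 genes and 0 were below it for all 3. Of the 12 score-low cells, 6 were below it for all 3 genes, 5 for 2 genes and 1 for a single gene. The labels name no separate cultures or preparations for the 35 cells. Over them, Spearman's rho was 0.50 between Psat1 and Phgdh, 0.33 between Phgdh and Asns and 0.17 between Psat1 and Asns. In the 13 cells above the Gata6 limit, which the ranking did not use, these values were 0.45, 0.60 and 0.69. Psat1 and Asns were thus the least alike pair in the ranked cells and the most alike in the Gata6 cells.

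**Figure D1:**
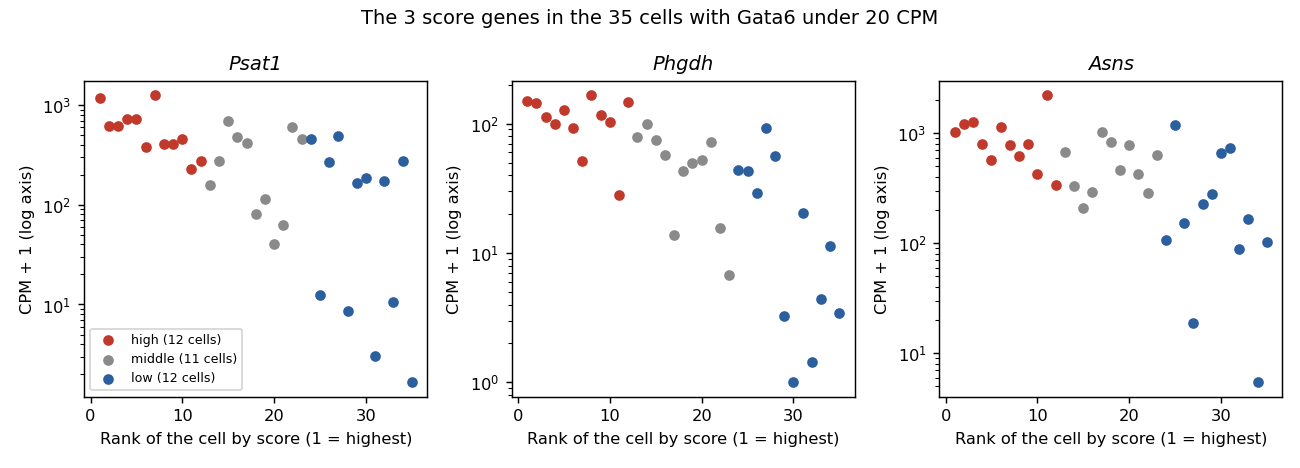
CPM + 1 of Psat1, Phgdh and Asns (log axis) in the 35 cells, placed by the rank of their score, with score-high, middle and score-low cells in separate colours. Score-low cells spread widely for each gene, and some reach the levels of score-high cells: the highest score-low cell has 490 CPM of Psat1 and 1200 CPM of Asns.

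The label calls these cells naive and serine-synthesis high or low. Zfp42 (Rex1), a marker of naive ES cells, had 1070, 1990 and 3060 CPM in score-high cells, against 102, 1250 and 3770 CPM in score-low cells. Esrrb, a transcription factor of the naive state, had 71.6, 232 and 589 CPM in score-high cells, against 0.154, 179 and 396 CPM in score-low cells. Gata6, a marker of primitive endoderm, reached at most 1.36 CPM in the 35 cells, and the lowest cell left out had 82.8 CPM. The primed marker Otx2 had medians of 22.6 CPM in score-high cells and 19.2 CPM in score-low cells. Score-low cell 11 had the lowest mean level of the naive list, 2.95 log2(CPM + 1), and the highest level, 7.82, was in a score-high cell. Cell 11 also had the highest mean level of the primed epiblast list on either side, 4.31, followed by score-low cell 45 with 4.11. Score-high cells reached at most 3.09 and middle cells 4.56. The levels of cell 11 thus go against the name naive. The serine part of the label rests on Phgdh and Psat1 alone. Psph, the enzyme of the last step, had 0.224, 59.5 and 245 CPM in score-high cells, against 1.41, 76.5 and 157 CPM in score-low cells. Its difference was 0.30 and the score-high cell was the larger in 54.2% of pairs, but the value depended on the setting: it was -0.19 with TMMwsp factors, -0.58 with the score made without Psat1 and 1.08 with no Gata6 limit.

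Over 11451 genes with a mean summed count of at least 10, without the score genes, the median difference was 0.12, with quartiles of -0.36 and 0.63, and 57.1% of genes had a difference above 0. At least 1 log2 unit higher in score-high cells were 1557 genes (13.6%), and at least 1 unit lower were 798 genes (6.97%). Of those past 1 unit in either direction 66.1% were higher. That share was 52.2% with TMMwsp factors and 53.2% with poscounts size factors, where the median of all genes was 0.03 and 0.02. No gene separated the sides without overlap in either direction (0.0% of genes tested). The counts for each gene list below are read against 13.6%, 6.97% and 57.1%.

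The windows around the start sites of several ATF4 targets are shown first, because the members that were higher share a short motif there. ATF4 forms dimers with C/EBP proteins that bind composite sites, and the letters TGATGNAA (N is any base) were searched on both strands from 250 bases before to 50 bases after each start site in RefSeq's promoters of the mouse build GRCm38.p6. The match stood in 1304 of 32851 windows (3.97%). Of the tested genes, 9155 matched a promoter by symbol, and 251 of them (2.74%) held the letters. All 6 ATF4 targets at least 1 unit higher held it, among 7 of the 17 matched members of that list. So did Asns, while Psat1 (0 of 2 windows) and Phgdh (0 of 1) did not. The 6 were picked for being higher, Chac1 among them passed the count limit through its score-high reads, and Asns helped choose the cells. Their shared letters are therefore no support for a difference. Aldh18a1, which stood at the 1-unit limit and was not counted as higher, was not among the 7. Among all tested genes at least 1 unit higher it was 34 of 1234 matched (2.76%), and among those at least 1 unit lower it was 23 of 645 (3.57%). ATF4 target lists are in part compiled from genes with such sites, and a match is a description of letters, not of binding. The lines give 10 bases on either side, read in the direction of the motif, with the motif in capitals.
Asns: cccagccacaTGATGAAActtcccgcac
Trib3: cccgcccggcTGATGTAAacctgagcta
Chac1: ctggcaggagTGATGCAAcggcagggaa
Nupr1: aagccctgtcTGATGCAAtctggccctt
Pycr1: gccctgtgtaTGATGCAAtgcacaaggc
Got1: gaggcttgtaTGATGCAAccaatgcaat
Pck2: tgtaagatacTGATGTAActttgaaggc
Gars: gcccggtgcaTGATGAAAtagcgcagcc
Iars: cgtctggaggTGATGCAAtactgacagt

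The variable base differed among these genes. Chac1, Nupr1, Pycr1, Got1 and Iars had C there, Trib3 and Pck2 had T, and Asns and Gars had A. The first base of the motif on the gene's strand lay 23 bases before the start site in Asns, 193 in Chac1, 110 in Nupr1, 103 in Pycr1, 102 in Got1, 103 in Pck2 and 30 in Gars. It lay 14 bases after the start site in Trib3 and 7 in Iars. The 300-base windows of 3 genes are given in the gene's own direction, again with the motif in capitals, to show its place relative to the start site. The Asns window is chr6:7693160-7693459 on the minus strand, the Chac1 window chr2:119350992-119351291 on the plus strand and the Pycr1 window chr11:120643699-120643998 on the minus strand. In Chac1 the capitals show the reverse complement of TGATGCAA.
Asns window: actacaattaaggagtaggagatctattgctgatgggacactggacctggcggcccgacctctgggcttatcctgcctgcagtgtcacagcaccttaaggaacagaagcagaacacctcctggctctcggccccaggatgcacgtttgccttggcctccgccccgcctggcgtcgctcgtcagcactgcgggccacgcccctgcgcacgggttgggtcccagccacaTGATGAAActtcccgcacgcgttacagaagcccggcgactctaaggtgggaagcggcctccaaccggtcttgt
Chac1 window: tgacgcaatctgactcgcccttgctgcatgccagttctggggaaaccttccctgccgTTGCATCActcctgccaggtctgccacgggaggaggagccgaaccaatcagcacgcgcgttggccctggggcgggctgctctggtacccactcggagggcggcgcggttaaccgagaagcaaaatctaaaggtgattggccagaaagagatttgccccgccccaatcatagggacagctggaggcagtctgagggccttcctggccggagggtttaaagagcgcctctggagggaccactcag
Pycr1 window: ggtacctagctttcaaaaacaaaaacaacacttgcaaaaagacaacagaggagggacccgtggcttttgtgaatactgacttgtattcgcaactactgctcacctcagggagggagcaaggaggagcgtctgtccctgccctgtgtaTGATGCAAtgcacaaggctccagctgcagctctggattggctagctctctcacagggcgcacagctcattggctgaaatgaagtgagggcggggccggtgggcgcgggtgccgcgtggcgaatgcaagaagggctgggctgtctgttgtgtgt

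The windows of the other genes shown are chr2:152344011-152344310 (minus) for Trib3, chr7:126625421-126625720 (minus) for Nupr1 and chr19:43524556-43524855 (minus) for Got1. Those of Pck2, Gars and Iars are chr14:55540016-55540315, chr6:55037751-55038050 and chr13:49681880-49682179, all on the plus strand.

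Among ATF4 targets, Trib3, Chac1, Pycr1, Nupr1, Pck2 and Got1 were at least 1 unit higher in score-high cells, while Atf4 itself was under 1 unit. Of 27 listed targets 19 were tested, 6 were at least 1 unit higher and 2 at least 1 unit lower, or 31.6% and 10.5%. The median difference was 0.51. With the score made without Psat1 it was 0.08, against 0.04 for all genes, and 5 members were at least 1 unit higher and 1 lower. Trib3, a pseudokinase that feeds back on the pathway, had the largest difference of the list, 3.43, with the score-high cell larger in 86.5% of pairs. It had 0, 29.1 and 95.1 CPM in score-high cells, against 0, 0.133 and 32.1 CPM in score-low cells. At 10 CPM or more Trib3 was seen in 8 of 12 score-high, 6 of 11 middle and 1 of 12 score-low cells. Its summed level was 38.3 CPM in score-high cells (95% exact Poisson interval 37.0 to 39.7) and 3.36 CPM in score-low cells (2.97 to 3.79). These intervals cover the counting of pooled reads alone and leave out the spread over cells. The amplified cDNA carried no molecular identifiers, so reads are not independent counts of molecules.

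Chac1, which degrades glutathione, was in fewer cells. It had 0, 2.85 and 89.6 CPM in score-high cells, against 0, 0 and 14.8 CPM in score-low cells. In score-high cells 5 of 12 had 10 CPM or more, in middle cells 0 of 11 and in score-low cells 1 of 12. The 5 cells were cells 26, 18, 36, 29 and 17 with 89.6, 77.6, 74.7, 42.0 and 32.0 CPM, and the lone score-low cell was cell 21. The difference of Chac1 was 2.46. Its reads came almost all from score-high cells, through which it passed the count limit. Its place among the higher targets is therefore no support for a difference. Pycr1, the last enzyme of proline synthesis, had 0, 26.2 and 202 CPM in score-high cells, against 0, 0.0941 and 63.4 CPM in score-low cells, a difference of 2.45. Its levels in score-low cells were split, with 3 of 12 at 10 CPM or more.

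Nupr1, a stress-induced chromatin protein, had 0, 12.2 and 371 CPM in score-high cells, against 0, 0.137 and 63.7 CPM in score-low cells. Pck2, the mitochondrial phosphoenolpyruvate carboxykinase, had 0, 4.89 and 75.2 CPM in score-high cells, against 0, 0.163 and 60.3 CPM in score-low cells. Got1, the cytosolic aspartate aminotransferase, had 81.2, 344 and 469 CPM in score-high cells, against 6.31, 98.0 and 824 CPM in score-low cells. Got1 was read in every cell of both sides, whereas the other 5 targets were at 0 in at least 1 score-high and 5 score-low cells. The differences were 1.76 for Nupr1, 1.69 for Pck2 and 1.44 for Got1. Each went under 1 unit in some setting. With a pseudocount of 10 CPM in place of 1, Nupr1 was 0.97 and Pck2 0.78, and on the ratio of mean CPM Got1 was 0.61.

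Several targets had small or negative differences. Atf4, the transcription factor itself, had 0, 75.6 and 219 CPM in score-high cells, against 0.789, 61.5 and 332 CPM in score-low cells, a difference of -0.14. The sign of that value was not stable: it was 0.06 with TMMwsp factors and 0.86 with 8 cells a side. Ddit3, the stress factor CHOP, had medians of 0.617 CPM in score-high cells and 1.34 CPM in score-low cells and a difference of 0.25, which was 1.12 on the ratio of mean CPM and -0.10 with the score made without Psat1. Atf3, another stress-induced factor, had a difference of -0.29, Cebpb of 0.04 and Eif4ebp1, an inhibitor of cap-dependent translation, of 0.51. Sesn2, with 0.14, had 1.5 with the score made without Asns and -0.62 without Psat1. Cth, which makes cysteine from cystathionine, had 0, 13.6 and 155 CPM in score-high cells, against 0.308, 49.5 and 172 CPM in score-low cells, a difference of -1.36. Cebpg, a dimer partner of ATF4, had a difference of -1.11, which was 0.03 with 8 cells a side and went under 1 unit without any 1 of 11 cells, to -0.69 at the smallest. Aldh18a1, the first enzyme of proline synthesis, stood at the 1-unit limit with medians of 11.5 CPM in score-high cells and 1.89 CPM in score-low cells. Its difference ranged from -0.11 on the ratio of mean CPM to 2.60 with no Gata6 limit.

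The 6 higher targets were present together in some score-high cells and not in others. Counting those with 10 CPM or more, score-high cells had 1, 3.5 and 6 of 6 (lowest, median, highest), middle cells at most 3 and score-low cells 1, 1.5 and 3. Of the 12 score-high cells, 6 had 4 or more of them, and of the middle and score-low cells 0 of 11 and 0 of 12. Cells 29 and 36, with 6 each, had the 2 highest scores, and cells 46 and 47, with 1 each, the 2 lowest scores among the score-high. Since these 6 genes were picked for being higher, this count describes how they were spread over cells and is no support for the difference.

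**Figure D2:**
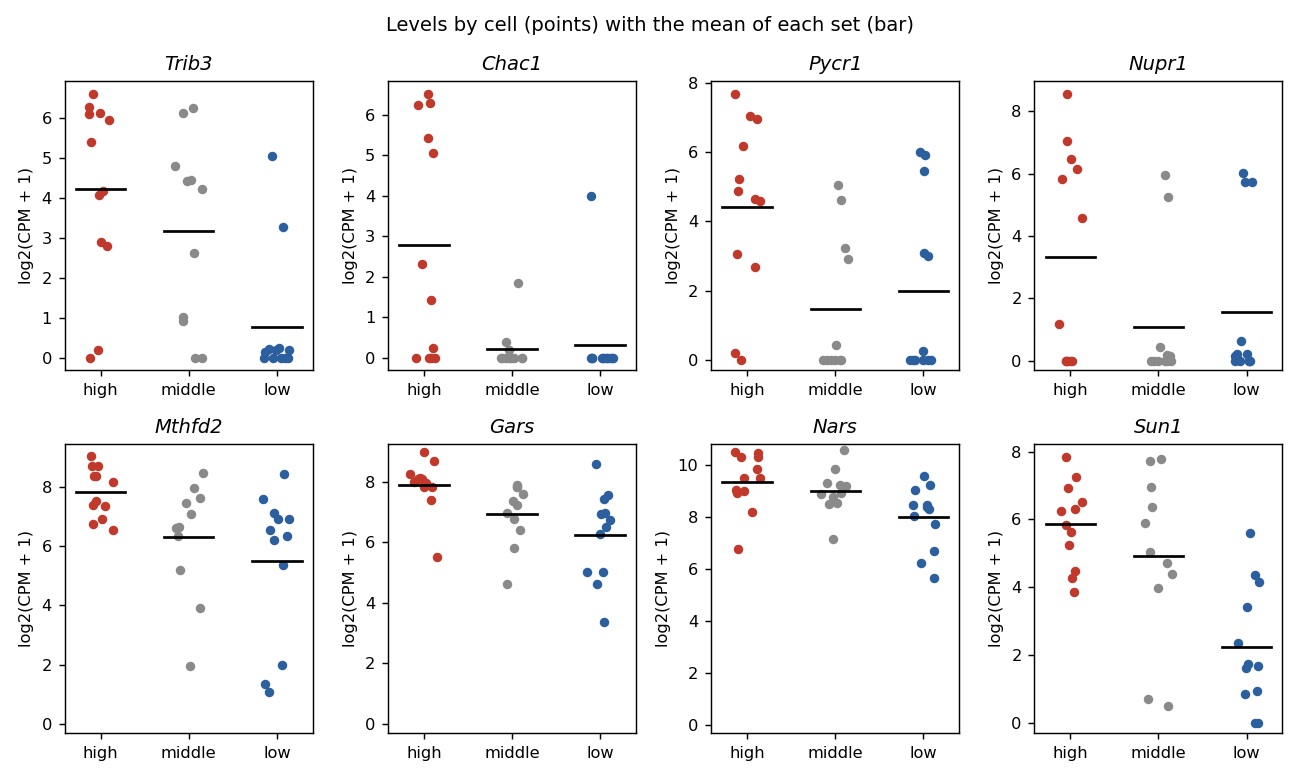
Level of 8 genes as log2(CPM + 1) in each score-high, middle and score-low cell, with the mean of each set as a bar. Trib3 is at 10 CPM or more in 8 of 12 score-high and 1 of 12 score-low cells, and Chac1 is on in 5 score-high cells and near 0 in most others.

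In serine and one-carbon metabolism, Mthfd2, Gldc, Mtr and Shmt2 were at least 1 unit higher in score-high cells and Dld was at least 1 unit lower. That is 4 and 1 of the 18 tested members of 21, or 22.2% and 5.56%, with a median difference of 0.41. The count of higher members was 2 with TMMwsp factors and 1 with a pseudocount of 10 CPM, where Mthfd2 remained. Mthfd2, the mitochondrial methylenetetrahydrofolate dehydrogenase, had 91.1, 232 and 529 CPM in score-high cells, against 1.10, 86.4 and 345 CPM in score-low cells. Its difference was 2.33, and the score-high cell was larger in 82.6% of pairs. All 12 score-high cells lay above the median of the score-low cells, and 6 score-low cells lay below every score-high cell. The median of Mthfd2 in middle cells was 100 CPM, near that of the score-low cells.

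Shmt2, which turns serine into glycine in mitochondria, had 34.4, 147 and 364 CPM in score-high cells, against 0.341, 144 and 208 CPM in score-low cells. The medians were nearly equal. Leaving out score-low cell 11, 24 or 44 or score-high cell 17 took its difference of 1.10 under 1 unit, to 0.59 at the lowest. Gldc, of the glycine cleavage system, had medians of 155 CPM in score-high cells and 89.3 CPM in score-low cells and a difference of 1.30, which went under 1 unit in 8 other settings and without score-low cell 5, 24 or 34 (0.84 at the lowest). Mtr, methionine synthase, had medians of 12.1 CPM in score-high cells and 1.35 CPM in score-low cells, and a difference of 1.28 that was 0.93 without score-high cell 1. Dld, a shared subunit of the glycine cleavage and pyruvate dehydrogenase complexes, had medians of 130 CPM in score-high cells and 173 CPM in score-low cells, and a difference of -1.25 that was -0.74 without score-high cell 47. The cytosolic enzymes Shmt1 (0.33) and Mthfd1 (-0.16), thymidylate synthase Tyms (-0.17) and threonine dehydrogenase Tdh (-0.08) differed by less than 0.5. The letters TGATGNAA were in 0 of the 14 matched promoters of this list.

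Cytosolic tRNA synthetases, which load amino acids onto tRNAs and of which several are ATF4 targets, leaned towards score-high cells. All 20 were tested, 5 were at least 1 unit higher (25.0%) and 0 lower, 15 had a difference above 0, and the median was 0.62. With the score made without Psat1, 1 was at least 1 unit higher, the median was 0.41, and Gars, Nars, Mars and Vars were under 1 unit. The count of higher members ranged from 1 to 10 over all settings. Gars, for glycine, had 44.4, 261 and 503 CPM in score-high cells, against 9.23, 98.3 and 380 CPM in score-low cells, a difference of 1.64. The score-high cell was larger in 86.8% of pairs, the highest share in this list. Nars, for asparagine, had 110, 731 and 1440 CPM in score-high cells, against 49.5, 324 and 775 CPM in score-low cells, a difference of 1.38 and 81.9% of pairs.

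Mars, for methionine, had medians of 163 CPM in score-high cells and 30.9 CPM in score-low cells and a difference of 1.58. Iars, for isoleucine, had medians of 206 CPM in score-high cells and 154 CPM in score-low cells and a difference of 1.60, and its low tail in score-low cells reached 0.349 CPM. Vars, for valine, had medians of 42.2 CPM in score-high cells and 22.8 CPM in score-low cells. Its difference was 1.13 and went under 1 unit, to 0.86 at the lowest, without score-high cell 9 or 29 or score-low cell 35 or 44. Tars was just short of 1 unit with 0.92, and Cars went the other way with -0.97. Motif letters stood in 5 of the 13 promoters matched, those of Aars, Gars, Iars, Tars and Yars, and of the higher members matched Gars and Iars held them and Mars did not. The mean level of the list per cell ranged from 6.77 over 7.75 to 8.15 log2(CPM + 1) in score-high cells, against 5.83, 7.12 and 7.82 in score-low cells, and its rho with the score was 0.56 over 35 cells. Mitochondrial tRNA synthetases did not share the lean, with a median difference of 0.11, 2 of 17 higher (Hars2, 1.75, and Sars2, 1.21) and 1 lower (Iars2, -1.15). Sars2 and Iars2 each went under 1 unit without any 1 of 6 and 4 cells.

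Amino acid transporters, which bring in the products these pathways make or use, lay near all genes. Of 17 tested, 2 were at least 1 unit higher and 0 lower (11.8% and 0.0%), and the median was 0.17. The median was -0.03 with poscounts size factors, and the count of higher members ranged from 0 to 6 over all settings. Slc7a1, the carrier of cationic amino acids, had medians of 19.2 CPM in score-high cells and 1.97 CPM in score-low cells, a difference of 1.61. Slc43a1, a carrier of large neutral amino acids, was read in 3 score-high cells at up to 52.0 CPM and was at 0 in all 12 score-low cells. Without any 1 of those 3 cells its difference of 1.20 was under 1 unit. At 0 in all score-low cells, Slc43a1 could not come out lower, so its place among the 2 higher members is no support for a difference. Slc7a11, the cystine carrier and a classical ATF4 target, had a difference of 0.01 and at most 4.25 CPM in score-high cells and 10.5 CPM in score-low cells. Its partner Slc3a2 had medians of 366 CPM in score-high cells and 172 CPM in score-low cells, with a difference of 0.30 (-0.07 with the score made without Phgdh), and Slc7a5, the leucine carrier, of 0.51 (1.47 with 8 cells a side). The list of eIF2 kinases and phosphatases, which act upstream of ATF4, had 0 members at least 1 unit higher and 1 lower, Gcn1l1 (-1.15), of 15, which was under 1 unit without any 1 of 5 cells.

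Genes of the ER leaned the same way as the synthetases. Of 19 tested chaperones and genes of the unfolded protein response, 7 were at least 1 unit higher and 2 at least 1 unit lower (36.8% and 10.5%), with a median of 0.71 and 17 above 0. Atf6, a sensor of unfolded protein, had 0.324, 18.5 and 134 CPM in score-high cells, against 0, 0.362 and 63.9 CPM in score-low cells, a difference of 2.43. Creld2 (1.68), Pdia4 (1.58), Manf (1.57), Sdf2l1 (1.33) and Hyou1 (1.09) were higher by less, as was Dnajb9 (1.28), which had 2 score-high cells at 10 CPM or more and no score-low cell above 0.156 CPM. With almost no reads in score-low cells Dnajb9 could hardly come out lower, so its place among the 7 is no support for the lean. Hspa5, the main ER chaperone BiP, had a difference of 0.84. Edem1 (-1.53) and Syvn1 (-1.45), which serve the degradation of misfolded proteins, were lower. Dnajb9 was under 1 unit (0.85 at the lowest) without score-high cell 18 or 46, and Syvn1 was -0.99 without score-low cell 5. Edem1 was 0.25 with 8 cells a side. Middle cells had the same list level as score-high cells, medians of 5.73 in score-high, 5.79 in middle and 5.00 log2(CPM + 1) in score-low cells. When the ranking left out Psat1, the count of higher members was 1 and the median 0.27.

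**Figure D3:**
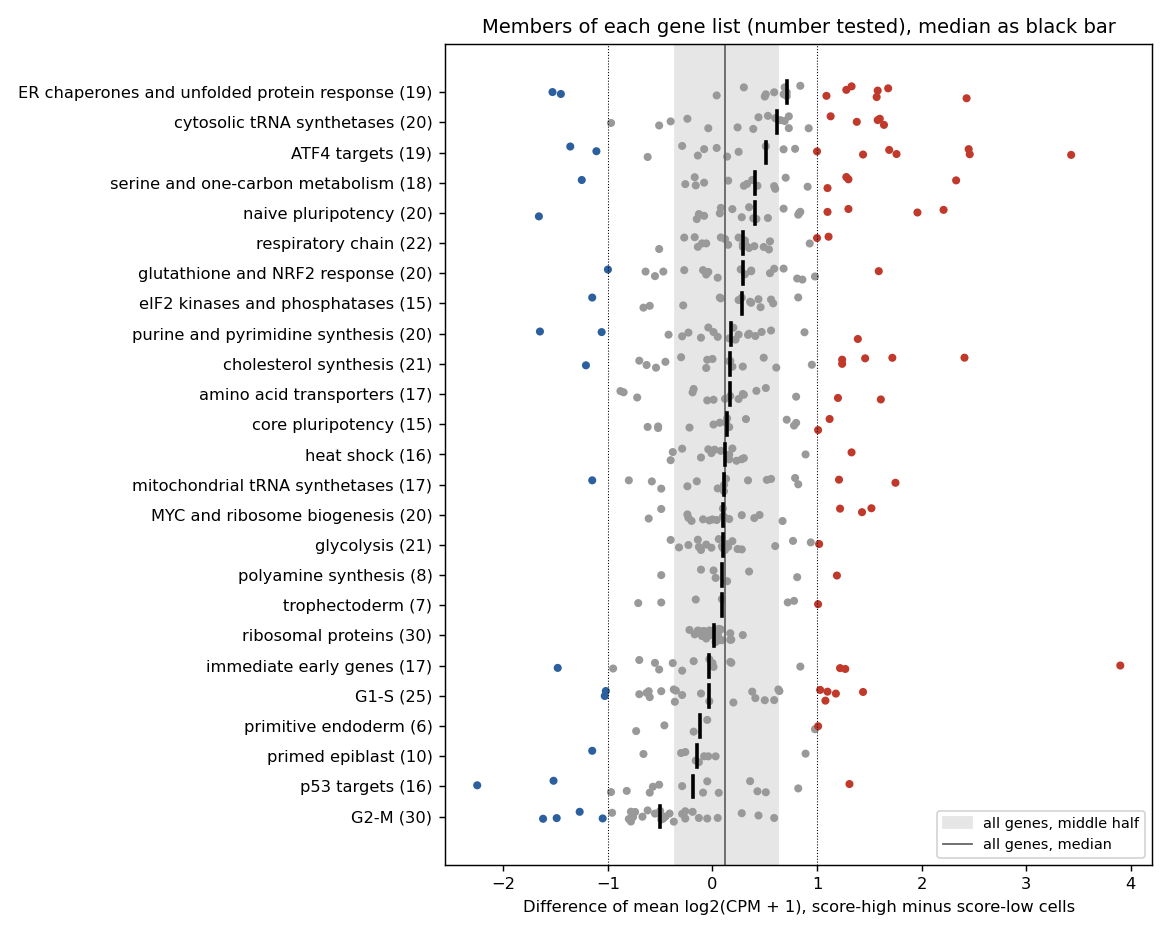
Difference in mean log2(CPM + 1), score-high minus score-low cells, for every tested member of 25 gene lists (points, with the number tested), with the list's median as a bar and all tested genes as a grey band (quartiles) and line (median). Red and blue points are past 1 log2 unit. ER genes, cytosolic tRNA synthetases and ATF4 targets have the highest medians, 0.71, 0.62 and 0.51, and G2-M genes the lowest, -0.50.

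Mitotic genes were lower in score-high cells. Of 30 G2-M genes 26 had a difference below 0, 4 were at least 1 unit lower and 0 higher (13.3% and 0.0%), and the median was -0.50. The count of lower members ranged from 2 to 11 over all settings. Ckap2, a spindle protein, had 5.15, 118 and 328 CPM in score-high cells, against 51.8, 229 and 904 CPM in score-low cells, a difference of -1.62. Cdk1, the kinase that drives entry into mitosis, had 0.168, 224 and 952 CPM in score-high cells, against 73.0, 438 and 1200 CPM in score-low cells. Ttk, a spindle checkpoint kinase, and Aurkb, a chromosome passenger kinase, had differences of -1.49 and -1.05. Cdk1, at -1.27, was -0.62 without score-high cell 18, and Aurkb was under 1 unit without any 1 of 11 cells. The list level was 6.65, 7.31 and 7.96 log2(CPM + 1) in score-high cells, against 7.07, 7.80 and 8.79 in score-low cells. Its rho with the score was -0.51 over 35 cells. G1-S genes had a median of -0.03, 5 of 25 at least 1 unit higher (among them Dscc1, Rpa2 and Ung) and 2 lower, the replicative helicase subunits Mcm7 (-1.03) and Mcm2 (-1.02), each under 1 unit without any 1 of 11 cells. Rpa2 was under 1 unit without score-low cell 35 or 44 and Ung without any 1 of 10 cells. Any part that cell cycle phase has in the metabolic differences was not tested.

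**Figure D4:**
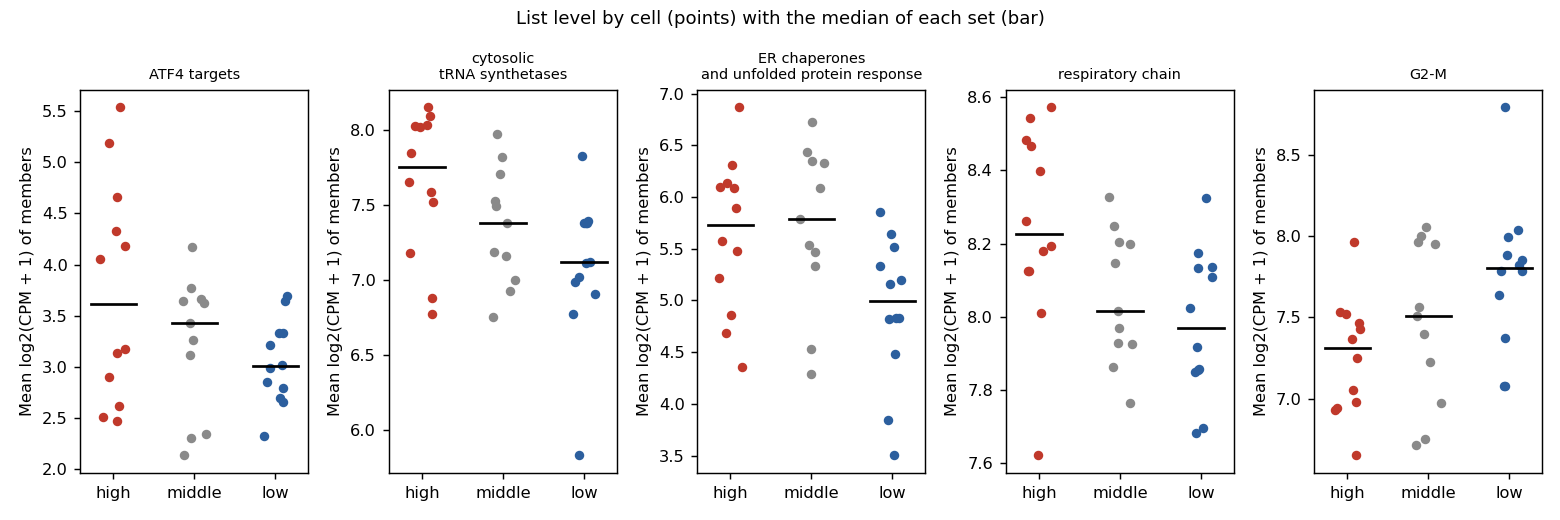
Mean log2(CPM + 1) of the tested members of 5 gene lists in each cell, score-high, middle and score-low, with the median of each set as a bar. Cytosolic tRNA synthetases have medians of 7.75, 7.38 and 7.12 and G2-M genes 7.31, 7.51 and 7.80 across the 3 sets. All sets overlap in each list.

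The counts of pluripotency genes past 1 unit lay near the shares of all genes, 13.6% and 6.97%. Of 20 naive genes 4 were at least 1 unit higher (20.0%) and 1 lower (5.0%), with a median of 0.41. Tcl1, a cofactor of Akt kinases, had medians of 172 CPM in score-high cells and 52.7 CPM in score-low cells, and Dppa3 (Stella) 219 CPM in score-high cells and 106 CPM in score-low cells. Prdm14 (1.30) and Esrrb (1.10) were higher too, and Klf4 was lower, at -1.66, with medians of 64.4 CPM in score-high cells and 123 CPM in score-low cells. Klf4 was under 1 unit in 6 other settings, and was -0.19 on the log2 ratio of mean CPM. The naive median became -0.25 and Esrrb -0.15 when the score was made without Asns, so the direction for this list depends on the score genes used. Esrrb was also under 1 unit, 0.51 at the lowest, without score-high cell 9 or score-low cell 11, 35 or 44. Of 15 core pluripotency genes 2 were at least 1 unit higher (13.3%), Nanog (1.12) and Dppa2 (1.01), and 0 lower (0.0%). Both were under 1 unit without any 1 of 6 cells for Nanog and 11 cells for Dppa2. Pou5f1 (Oct4), whose counts are uncertain because of near-identical pseudogene copies, had a difference of 0.01. Primed epiblast genes had a median of -0.15 with 0 of 10 higher and Lef1 lower (-1.15, but under 1 unit without score-low cell 15 or 45).

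Defining markers of other cell types were scarce in most cells. Of 18 primitive endoderm genes 6 passed the count limit, and their summed level over all 18 was 104, 524 and 845 CPM in score-high cells, against 41.9, 264 and 520 CPM in score-low cells. Sparc, which many cells of mouse embryos express, had medians of 454 CPM in score-high cells and 188 CPM in score-low cells, and a difference of 1.01 that was under 1 unit without any 1 of 13 cells. The defining genes Gata6, Gata4 and Sox17 did not exceed 3.47 CPM on either side. Trophectoderm genes summed to medians of 33.8 CPM in score-high cells and 60.1 CPM in score-low cells with Cdx2 at 0 in all 24 cells, and 1 score-high cell had 1840 CPM with 739 CPM of Krt8, whose difference was 1.01 and under 1 unit without any 1 of 13 cells. Score-high cell 14 had the highest mean level of the trophectoderm list, 5.81 log2(CPM + 1), and score-low cell 35 had 3.81. Cell 14 also had the highest mean level of the mesendoderm and neuroectoderm list, 3.22. That list had 3 tested members and shares Eomes with the trophectoderm list. The part of these markers in the differences above was not tested. Fibroblast genes had 7 of 12 members at 0 in all 24 cells, with Vim as the 1 higher member (1.13) of 2 tested, under 1 unit without any 1 of 11 cells. Genes of the 2-cell-like state were at 0 in all score-low cells and summed to at most 0.522 CPM in score-high cells.

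Ranked by pair share rather than by list, the genes that best separated the sides were mostly outside these pathways. Sun1, a protein of the inner nuclear membrane, had 13.4, 66.1 and 228 CPM in score-high cells, against 0, 2.26 and 47.7 CPM in score-low cells. The score-high cell was larger in 95.1% of pairs, as for Phgdh, and the difference was 3.64. Adam10, a membrane protease that cleaves Notch, had 25.9, 69.0 and 166 CPM in score-high cells, against 0.156, 11.6 and 97.7 CPM in score-low cells. Pttg1ip had 10.6, 135 and 251 CPM in score-high cells, against 0.156, 1.36 and 93.2 CPM in score-low cells, and its difference was 3.80. Among the next were Men1 (menin), Mfsd10, 2810407C02Rik, Capn7, Zfp451, Gars, Wsb1 and Trib3, with shares of 89.6% to 86.5%. With 11451 genes ranked, the top shares are large by selection.

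Adam10 did not grade along the score. Its median was 69.0 CPM in score-high cells, 10.4 CPM in middle cells and 11.6 CPM in score-low cells, and the 13 Gata6 cells had 210 to 641 CPM. Sun1 and Pttg1ip lay between, with middle-cell medians of 31.7 and 95.8 CPM. At the other end, Fpgt, of fucose metabolism, had the smallest share among the genes at least 1 unit lower, 13.5%. Its levels were 0, 0 and 9.17 CPM in score-high cells, against 0, 7.41 and 91.0 CPM in score-low cells. Mbd3, a subunit of the NuRD repressor, had 0, 4.36 and 69.9 CPM in score-high cells, against 4.89, 41.4 and 126 CPM in score-low cells, a difference of -2.69. Rnmt, the mRNA cap methyltransferase, had 1.34, 151 and 255 CPM in score-high cells, against 107, 245 and 527 CPM in score-low cells. Ift81, Pmm2, Polr3e, C77080, B4galt6, Lace1, Mipol1 and Trim23 were among those that followed, with shares of 15.3% to 18.8%. Wsb1 (1.27) was 0.96 without score-low cell 11, and Rnmt (-1.34) was -0.85 without score-high cell 18.

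Other lists held single large differences. Dusp1, a phosphatase that switches off MAP kinases and an immediate early gene, had 18.1, 75.6 and 110 CPM in score-high cells, against 0, 0.567 and 247 CPM in score-low cells. Its difference of 3.90 was the highest of all genes tested, and the median of middle cells was 1.44 CPM. Immediate early genes as a list had a median of -0.03, with 3 of 17 at least 1 unit higher and Fos lower (-1.48), and Fos was under 1 unit (-0.84) without score-low cell 44. On the ratio of mean CPM the difference of Dusp1 was 0.88. Score-low cells 37 and 44 had 247 and 185 CPM, and the other score-low cells at most 14.6 CPM. Of 16 tested p53 targets, Bax was higher (1.31) and Mdm2 (-2.25) and Btg2 (-1.52) lower. Mdm2, the ligase that degrades p53, had 0.555, 12.3 and 699 CPM in score-high cells, against 0.626, 117 and 1510 CPM in score-low cells. Bax was 0.90 without score-low cell 48. Mdm2 was -0.60 with 17 cells a side, and Btg2 was -0.77 on the ratio of mean CPM.

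Of 21 tested cholesterol synthesis genes 5 were at least 1 unit higher and Mvd lower (-1.21), with a median of 0.17. Ebp, the sterol isomerase, had the largest difference there, 2.41, with medians of 32.6 CPM in score-high cells and 0.552 CPM in score-low cells. It was 0.23 with the score made without Asns and 0.55 on the ratio of mean CPM. The count of higher cholesterol genes was 2 with TMMwsp factors and 0 with a pseudocount of 10 CPM. The stress adaptor Sqstm1 (p62) was higher by 1.59 and was the 1 higher member of 20 in the glutathione and NRF2 list. Cad, which starts pyrimidine synthesis, was higher by 1.39, while Prps2 (-1.65) and Adsl (-1.06) of purine synthesis were lower. Of 22 respiratory chain genes 1 was at least 1 unit higher (4.55%) and 16 were above 0, with a median of 0.29 that was 0.04 with the score made without Asns. The list level had a rho of 0.55 with the score over 35 cells. Glycolysis (median 0.10, Hk1 higher by 1.02), heat shock (0.12), polyamine synthesis (0.09) and MYC and ribosome biogenesis genes (0.10) lay at the median of all genes. Ribosomal protein genes, whose counts can be shared with pseudogene copies, had a median of 0.01 and 0 of 30 past 1 unit either way. Of the genes named in this paragraph, Mvd, Adsl and Hk1 went under 1 unit without any 1 of 9, 6 and 14 cells.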

How the data were processed

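Per the submitters' processing notes, reads were processed with STAR 2.3.1z12 and featureCounts from Subread 1.4.5-p1 on build mm9; strand, multi-mapping and filter settings are not given in the sources used here. The authors deposited whole-number counts per gene for each cell and lane, unnormalized. The 25 rows with date-like names hold 0.66% of reads and stayed in the totals.

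The 2 lanes of a cell were summed and divided by the cell total to give CPM; levels are log2(CPM + 1). Genes with a mean summed count of at least 10 over the 35 cells were kept. Because the labels name 1 group and no separate cultures, no count test was run. Sides are described by differences, pair shares, counts past 1 log2 unit and list medians. Poisson intervals on summed reads are 95% and exact. Scaling alternatives used edgeR 4.0.16 (TMMwsp) and DESeq2 1.42.0 (poscounts) in R 4.3.3; the rest used Python 3.11.15, numpy 2.4.6, pandas 2.3.3 and scipy 1.17.1. The steps were tested on simulated data.

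Named genes are the score genes, the 12 highest and 12 lowest pair shares among genes past 1 unit, up to 6 members each way of 28 lists, and a set of pathway and marker genes given whatever their value; other list members are named as examples, and some genes the rule names are not reported here. The members and lists were chosen with earlier results of these data known. Promoter sequences are RefSeq's on GRCm38.p6, while the counts were made on mm9; genes were joined by symbol, and no coordinate was converted.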

Additional observations from a re-analysis of the deposited data

How the results depend on the processing

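The counts of 1557 genes at least 1 unit higher and 798 lower were 301 and 138 with a pseudocount of 10 CPM, and 1035 and 492 with 17 cells a side. The count of lower genes was 1734 on the log2 ratio of mean CPM and 1259 with 8 cells a side. With 1 cell left out, the count of genes at least 1 log2 unit higher ranged from 1505 to 1739, and that of genes at least 1 log2 unit lower from 744 to 908. The medians ranged from 0.08 to 0.77 for ATF4 targets (lowest with the score made without Psat1), 0.33 to 0.88 for cytosolic tRNA synthetases, 0.20 to 0.67 for serine and one-carbon genes, -0.12 to 0.50 for transporters and -0.79 to -0.34 for G2-M genes. Of the named genes past 1 unit, signs turned for Cebpg (0.03 with 8 cells a side, 0.32 with no Gata6 limit), Sars2 (-0.54 with 8 cells a side, -0.21 without Asns in the score), Edem1 (0.25 with 8 cells a side, 0.15 without Phgdh), Sqle (-0.11 with 17 cells a side), Esrrb (-0.15 without Asns), Lef1 (0.31 without Asns) and Krt8 (-0.09 with no Gata6 limit); the cause was not tested. Of those under or at the limit, Psph, Atf4, Ddit3, Slc7a11, Slc3a2, Aldh18a1, Cebpb and Sesn2 changed sign in at least 1 setting. Trib3, Pycr1, Mthfd2, Sun1, Adam10 and Pttg1ip stayed past 1 unit in every setting and with any 1 cell left out. So did Chac1, which passed the count limit through its reads in score-high cells. The settings that compared 12 cells a side kept at least 9 of the same 12 cells on each side. Trib3, Sun1, Adam10 and Pttg1ip were moreover picked for their high pair shares in these cells. Staying past 1 unit thus describes how little the values depended on processing, and for none of these genes is it separate support for a difference. Gars and Nars went under 1 unit when the score was made without Psat1 (0.63 and 0.89). Thinning all cells to 1 depth moved 2 of 110 named genes across the limit. No paired analysis was possible because both sides are cells of 1 group and no test was run.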
